A study of Neurospora crassa with 84 samples.

Results

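The genes described here kept a similar mean level in fertilized and unfertilized wild-type cultures of Neurospora crassa in light, and were low in fertilized cultures of the ve-1 deletion mutant in light. They were chosen from the measured values themselves. Expression was taken as plain CPM (the count of a gene divided by the total of its library, times 1000000), averaged over days with 0.5 added to each mean, and days -2 to 0 were called before and days 1 to 6 after fertilization. A gene was included when its wild-type level in light after fertilization was at least 10 CPM and between 0.5 and 2 times the level before, when the ∆ve-1/wild-type ratio in light was at or under 1/3 after fertilization and over 0.5 before, and when the ratio in the dark after fertilization was over 0.5. Of 10590 genes, 43 met these conditions. These 43 stood among 6135 genes that were steady in wild-type light by the same measure and 293 of those that were at or under 1/3 in ∆ve-1 in light after fertilization.

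RNA was sequenced from surface tissue of cultures on nitrogen-poor crossing medium, scraped from the agar at 2 and 1 days before fertilization, on the day of fertilization and 1, 2, 4 and 6 days later. The female parent was the wild type (OR74A background, mat A) or the ∆ve-1 deletion strain (also mat A), each grown throughout in darkness or in light, and both were fertilized with wild-type conidia of mating type mat a. Fertilized libraries of both strains can therefore also hold RNA of the wild-type male parent. There were 28 groups by strain, light and day, with 3 libraries in each and 84 in all.

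Velvet proteins such as VE-1 are regulators of transcription found in fungi, where they link light to the choice between asexual and sexual development. In Neurospora, the female organ is the protoperithecium, a knot of hyphae that sends out a receptive hypha, fuses with a male cell of the other mating type and then grows into a perithecium, in which meiosis and ascospore formation take place. Asexual spores, the conidia, form on aerial hyphae, and light promotes their formation.

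Each library held between 14.5 M and 18.4 M counted fragments (M, 1000000). The deleted gene ve-1 (NCU01731, chromosome II, 2607929 to 2611456, assembly NC12) had 2272 to 11859 counts in each wild-type library and 101 to 281 in each ∆ve-1 library, so every library matched its strain label. The part of the gene that was deleted was not given in the sources used here. A list of 11 markers of sexual tissue had 7 that could be matched by symbol, and the others were left out. In ∆ve-1 in light after fertilization, the summed level of these 7 was 757 to 3003 CPM per library against 6169 to 56250 CPM in the wild type. The mean was lower in ∆ve-1 in 5 of the 7, among them the abundant perithecial gene app, at 25.4 CPM against 7518 CPM, and higher in asd-1, at 41.2 CPM against 17.5 CPM, and sub-1, at 76.8 CPM against 72.5 CPM. The summed level of 8 conidiation genes was 63599 to 93090 CPM against 14817 to 29098 CPM, with a higher mean in ∆ve-1 in 6 of the 8 and a lower one in con-13 and ccg-1. None of the markers in these lists was at 0 in all libraries of a condition. Both summed levels moved with the strain in the comparison that chose the 43 genes, and their part in the values of these genes was not tested. In scraped tissue of this kind, fewer cells of a type and less RNA per cell cannot be told apart.

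Most of the 43 genes had no named product. Only 4 had a symbol in RefSeq (9.30%, against 10.6% of all genes), and 9 had either a symbol or a product name other than hypothetical protein in the sources used here. Those named here were mob-2b (NCU07460), a MOB protein of the kind that activates NDR kinases, pp-2 (NCU01613), a protein arginine methyltransferase of the HSL7 type, zip-1 (NCU08055), a putative bZIP transcription factor, cyp450-8 (NCU05006), a cytochrome P450, gle-1 (NCU05133), a UDP-glucose 4-epimerase, fdh (NCU03813), a formate dehydrogenase by its symbol, mic-36 (NCU00542), a mitochondrial carrier, and NCU09674, an O-methyltransferase. The genes were spread over all chromosomes, with 11 on chromosome I, 9 on II, 2 on III, 7 on IV, 7 on V, 5 on VI and 2 on VII. Chromosome II held 20.9% of them and 10.4% of all genes. No 2 of them were adjacent, and the nearest pair lay 13 genes apart. Another annotated gene overlapped 6 of them, NCU07017, NCU04194, NCU08345, NCU16503, NCU04260 and NCU01613, and their counts could be affected where the overlap is on the same strand. Gene lengths had a median of 2308 bases, against 2458 for all steady genes.

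The strain ratio that selected the genes ranged from 0.148 to 0.330 in light after fertilization, with a median of 0.287, against a median of 0.970 over all steady genes. Just inside the limit were NCU03220 at 0.323, NCU03192 at 0.326 and mic-36 (NCU00542) at 0.330, and just outside it NCU04470 at 0.339, NCU00028 at 0.341 and NCU05502 at 0.342. The ratio in light before fertilization ranged from 0.501 to 1.20 with a median of 0.606. It was between 0.5 and 0.6 in 19 of the 43, and over 0.8 in only 6. Most of these genes were thus already lower in ∆ve-1 in light before any cross was made, but by less than the limit. In the dark after fertilization, the ratio ranged from 0.503 to 2.12 with a median of 0.657, and it was between 0.5 and 0.6 in 11. Of the 293 steady genes that were low in fertilized ∆ve-1 in light, 125 were left out because they were at or under 0.5 before fertilization as well, 15 because they were low in the dark after fertilization, and 110 because of both. The plot of the strain ratio before and after fertilization shows the 43 as the right edge of this larger set rather than a separate cloud of points.

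**Figure D1:**
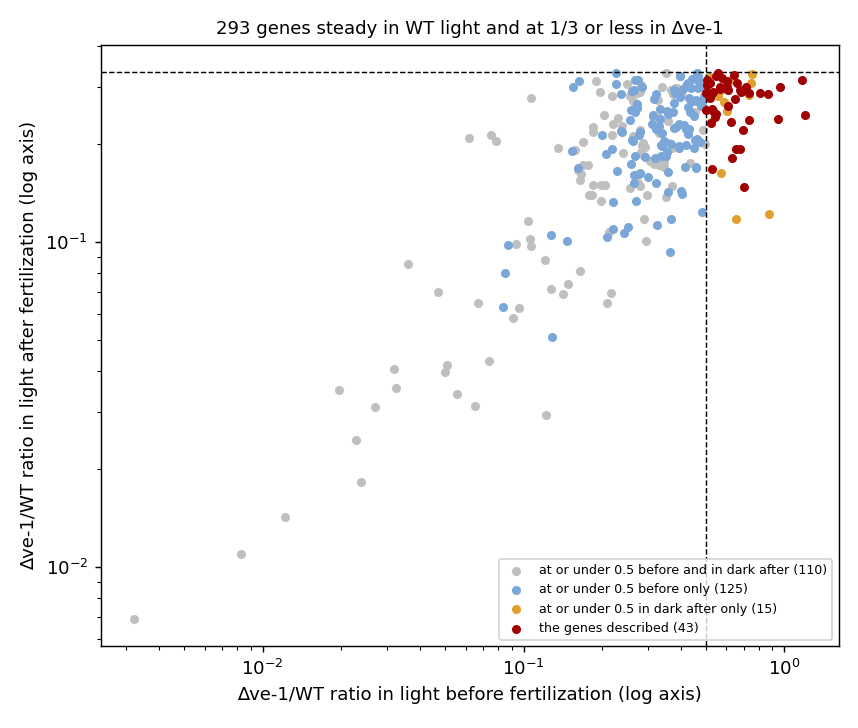
Strain ratio (∆ve-1/wild type, means of CPM plus 0.5) in light before fertilization on the horizontal axis and after fertilization on the vertical axis, both on log scales, for the 293 genes that were steady in wild-type light and at or under 1/3 in ∆ve-1. Dashed lines mark 0.5 and 1/3. The 43 genes (dark red) begin directly at the line at 0.5, where 125 genes low before fertilization only (blue) lie on the other side.

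The words steady and lost fit the values only in part. In wild-type light, 41 of the 43 had a higher mean after than before fertilization and the median change was 1.44 times, whereas over all steady genes the median was 0.863 and 32.0% were higher. The wild-type level in light also moved between the fertilized days. The day means spanned over 2-fold in 22 of the 43 (51.2%, against 23.1% of all steady genes), with a median span of 2.06 times. In ∆ve-1 in light, the level after fertilization was 0.271 to 1.02 times that before, with a median of 0.637. It was at or under 0.5 in 13 genes, between 0.5 and 0.8 in 22 and between 0.8 and 2 in 8. The low ratio after fertilization therefore combined a modest rise of the mean in the wild type with a fall or a similar level in the mutant. NCU02909 had a similar level, with a mean of 11.4 CPM before and 11.6 CPM after fertilization in ∆ve-1, against 23.3 and 41.6 CPM in the wild type. All of these values come from libraries used by the rule and are given as a description.

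Day by day, the median log2 fold change of ∆ve-1 against the wild type in light was -0.52 on day -2, -0.67 on day -1 and -0.63 on day 0, and it dropped to -1.72 on day 1, -1.92 on day 2, -1.94 on day 4 and -1.68 on day 6. Over all genes tested, the median lay between -0.04 and 0.00 on each of these days. All 3 ∆ve-1 libraries were below all 3 wild-type libraries in 31, 28 and 30 of the 43 on days -2, -1 and 0 (33.8%, 31.0% and 30.6% of all tested genes). The corresponding counts were 42, 43, 42 and 41 on days 1, 2, 4 and 6 (42.9%, 35.1%, 33.6% and 46.3% of all tested genes). A lower ratio after than before fertilization is built into the rule, so these values show only on which days it was met. In the dark, the medians were -0.18, -0.25 and -0.38 before fertilization and -0.67, -0.79, -0.54 and -0.21 on days 1, 2, 4 and 6. All 3 ∆ve-1 libraries were lower in 30, 32, 31 and 18 of the 43 on those later days (29.8%, 21.9%, 26.0% and 30.3% of all tested genes). The smaller gap in the dark than in light follows from the rule, which kept genes at over 0.5 in the dark, and the gap in the dark was smallest on day 6 of the fertilized days.

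**Figure D2:**
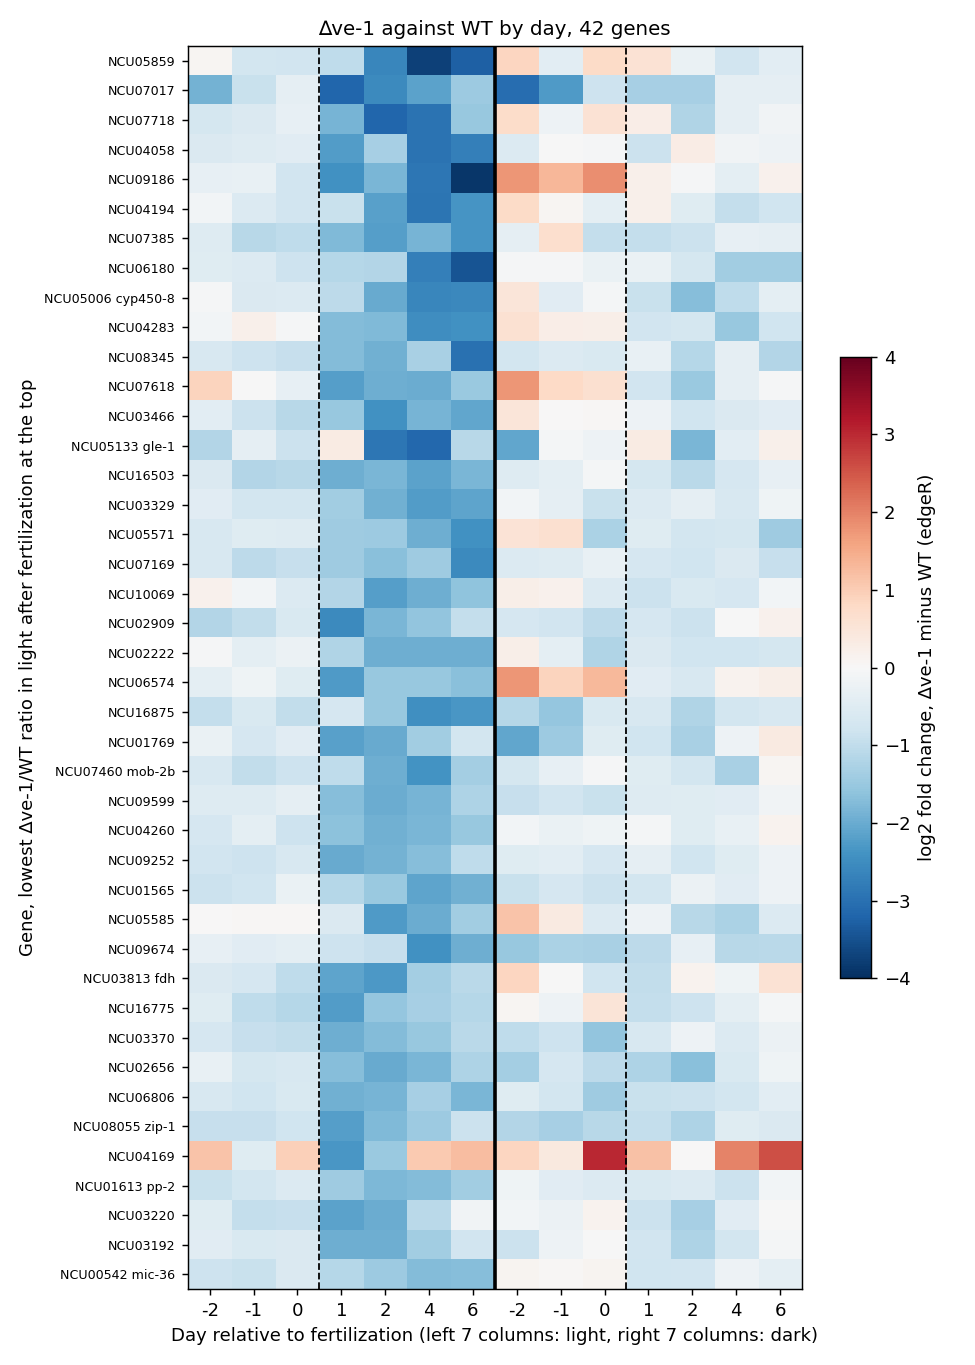
Log2 fold change of ∆ve-1 against the wild type (edgeR, color) for 42 of the 43 genes in rows and the 7 days in light (left) and in the dark (right) in columns, with dashed lines at fertilization. After fertilization in light the columns are blue in nearly all rows, with medians over the 43 genes of -1.72 to -1.94 on days 1 to 4, and NCU04169 is the row that turns red on days 4 and 6.

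Taking all 12 fertilized libraries of each strain in light together, every ∆ve-1 library was below every wild-type library in 35 of the 43 genes (15.3% of all tested genes). The rule chose the genes by their ratio in these same libraries, so a large share is built in and the count is a description. The 8 with overlap were NCU02656, NCU03220, NCU04169, gle-1 (NCU05133), NCU07618, NCU07718, NCU16775 and NCU16875. The single-library values of 6 genes are plotted by day.

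**Figure D3:**
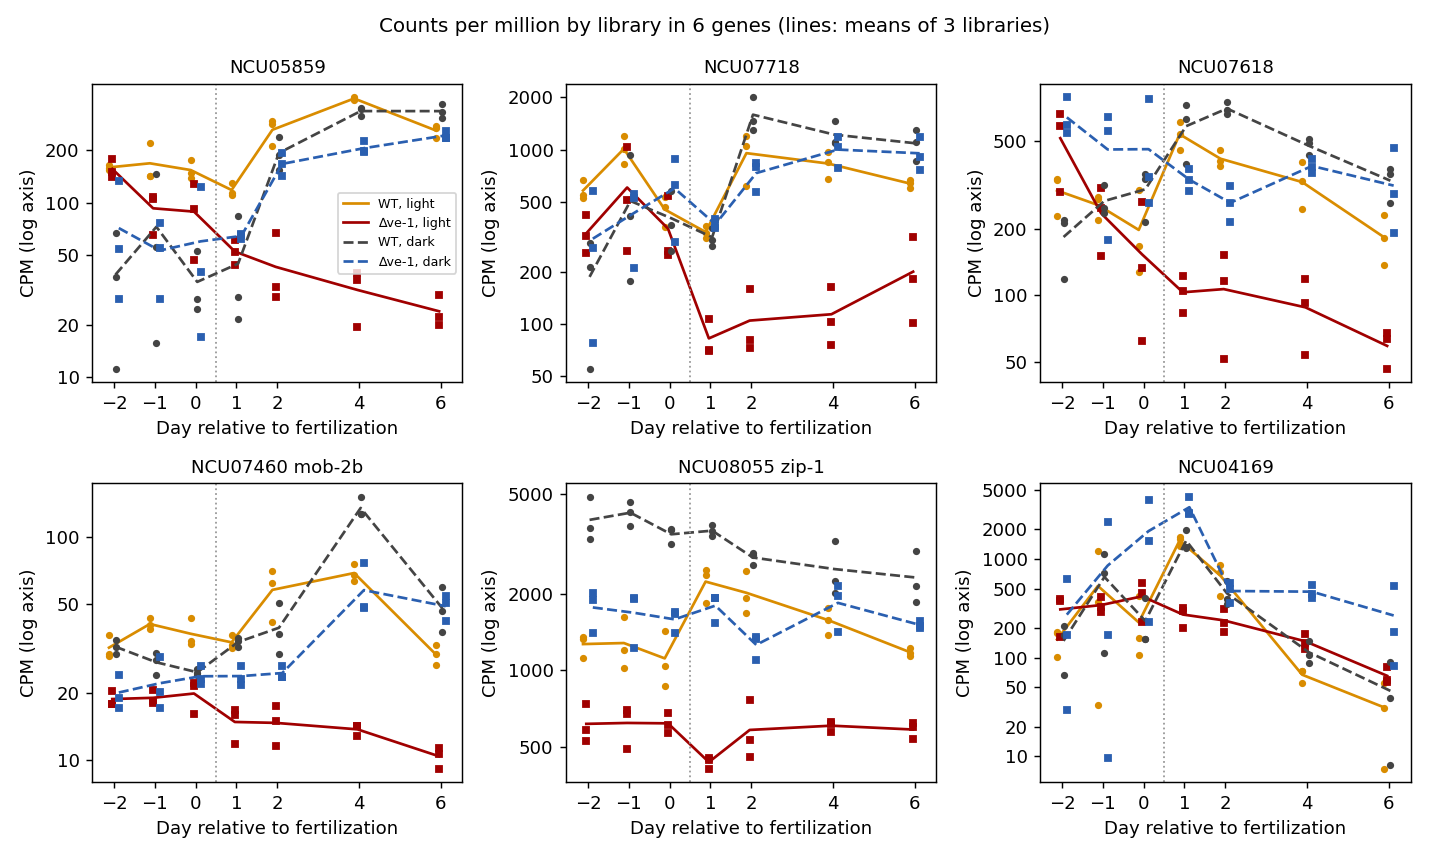
CPM on a log axis against day for NCU05859, NCU07718, NCU07618, mob-2b, zip-1 and NCU04169. Each point is 1 library, lines join the means of 3 libraries, colors separate the 4 combinations of strain and light, and the dotted line marks fertilization. In mob-2b the ∆ve-1 light libraries are at 14.2, 12.8 and 14.2 CPM on day 4 while the wild-type light libraries are at 75.7, 67.4 and 63.4 CPM, and in NCU04169 the wild-type and ∆ve-1 light curves cross between days 2 and 4.

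NCU05859 (hypothetical protein, chromosome VII, 4083979 to 4086497) had the lowest ratio of all. In light, the ∆ve-1 libraries were at 178, 141 and 150 CPM on day -2, level with the 155, 159 and 164 CPM of the wild type. On day 4 they were at 36.1, 19.4 and 39.5 CPM, while the wild type was at 395, 402 and 390 CPM, a log2 fold change of -3.74 ± 0.54 (SE). In the dark on day 4, the ∆ve-1 libraries had 225, 194 and 197 CPM and the wild-type libraries 349, 313 and 342 CPM. The mutant thus accumulated this transcript after fertilization in the dark and did not in light, where its level moved the other way. NCU05859 is also on a list of 290 genes regulated by both MAP kinases, MAK-1 and MAK-2, and also dependent on VE-1, as are NCU03370 and cyp450-8 (NCU05006). The dependence on VE-1 in that list was drawn by the study from these same libraries.

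The cytochrome P450 gene cyp450-8 (NCU05006, chromosome VI, 4112027 to 4114294) had a similar course at a higher level. Its wild-type libraries in light held 252 to 344 CPM before (median 314) and 276 to 535 CPM after fertilization (median 413). The ∆ve-1 libraries in light held 131 to 301 CPM before (median 237) and 54.2 to 169 CPM after (median 90.2), with no overlap between strains after fertilization. In the dark, it was higher after than before fertilization in both strains, going in ∆ve-1 from a median of 99.4 to 249 CPM and in wild-type libraries from 106 to 529 CPM.

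NCU07718 (chromosome IV, 2098540 to 2101005), with no product name in the sources used here, had a lower level in ∆ve-1 in light on day 1 than on day 0. Its ∆ve-1 libraries in light had 249, 263 and 545 CPM on day 0 and 107, 70.3 and 70.7 CPM on day 1, and the wild-type libraries had 359, 469 and 533 CPM on day 0 and 335, 365 and 312 CPM on day 1. On day 2 the wild type was at 1056, 1192 and 618 CPM and ∆ve-1 at 160, 73.1 and 80.9 CPM. In the dark on day 1 the strains overlapped, with 357, 365 and 398 CPM in ∆ve-1 and 358, 282 and 304 CPM in the wild type.

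In mob-2b (chromosome I, 552868 to 555385), the wild type had a peak on day 4, at 75.7, 67.4 and 63.4 CPM in light and 127, 151 and 127 CPM in the dark. The ∆ve-1 mutant had the day 4 peak in the dark, at 48.6, 76.5 and 48.0 CPM, and not in light, at 14.2, 12.8 and 14.2 CPM.

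The methyltransferase gene pp-2 (NCU01613, chromosome II, 2954621 to 2957700) held 43.4 to 93.5 CPM in wild-type light and 13.4 to 29.9 CPM in ∆ve-1 light after fertilization. It was higher in the dark in both strains before fertilization, where the median was 76.3 CPM in ∆ve-1 and 108 CPM in wild-type libraries. The gene for the epimerase gle-1, which interconverts UDP-glucose and UDP-galactose (chromosome VI, 3614247 to 3617841), was no lower in ∆ve-1 on day 1, at 22.6, 25.4 and 25.1 CPM in wild-type light and 29.4, 26.2 and 26.0 CPM in ∆ve-1 light. On day 4 it was at 13.3, 12.1 and 24.6 CPM in ∆ve-1 while the wild type had 157, 103 and 155 CPM. This gene is included for a rise in the wild type that ∆ve-1 lacked in light, since the ∆ve-1 level stayed within 11.6 to 29.5 CPM. In the dark on day 4, the ∆ve-1 libraries reached 104, 120 and 134 CPM.

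The bZIP gene zip-1 (NCU08055, chromosome I, 117750 to 119387) and NCU03370 (hypothetical protein, chromosome II, 939744 to 941575) had the highest counts of the set. In zip-1, wild-type light libraries held 869 to 1622 CPM before and 1141 to 2499 CPM after fertilization, and ∆ve-1 light libraries 489 to 738 CPM and 410 to 761 CPM. The largest gap came on day 1, at -2.20 ± 0.21 (SE, log2), when the wild type was at 2391, 1843 and 2499 CPM. By day 6 the gap was -0.85 ± 0.20, close to the -0.80 ± 0.20 of day 0. NCU03370 held 1635 to 4443 CPM in wild-type light and 483 to 1370 CPM in ∆ve-1 light after fertilization.

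The metabolic genes fdh, which by its name oxidizes formate, mic-36 and the O-methyltransferase gene NCU09674 were at moderate levels. For fdh, the ∆ve-1 light libraries went from a median of 72.8 CPM (49.0 to 143) to 52.7 CPM (23.8 to 97.8), and the wild-type light libraries had 156 CPM (94.2 to 185) and 170 CPM (113 to 258). For mic-36, the medians in light after fertilization were 27.0 CPM in ∆ve-1 and 78.4 CPM in wild-type libraries. NCU09674 had 107, 116 and 82.2 CPM in wild-type light on day 4 against 20.9, 20.5 and 19.0 CPM in ∆ve-1.

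NCU04169 (chromosome V, 5067463 to 5069571) met the rule through a single phase of its course. In wild-type light it was at 1667, 1588 and 1351 CPM on day 1 and at 55.6, 31.3 and 7.53 CPM on day 6, so its mean over days hid a span of 48.0 times between the highest and the lowest day. In ∆ve-1 light it went from 199, 300 and 322 CPM on day 1 to 59.6, 56.9 and 80.3 CPM on day 6. The mutant was lower on days 1 and 2 and higher on days 4 and 6, when all its libraries were above all wild-type libraries. In the dark on day 1, ∆ve-1 was higher, at 2933, 2844 and 4238 CPM against 1334, 1297 and 1961 CPM.

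The rule did not set 3 further features directly, and each was found in a larger share of the 43 genes than of all steady genes. The last 2 were found only in a minority of the 43. Many had their highest level in the middle of the fertilized days, in both strains. The highest fertilized day in wild-type light was day 2 or 4 in 25 of the 43 (58.1%), against 21.7% of all steady genes, of which 47.2% were highest on day 1. In the dark, the wild type gave the same counts, 25 of the 43 (58.1%) against 21.7%. In ∆ve-1 it was day 2 or 4 in 27 of the 43 in light (62.8%, against 38.0%) and in 22 in the dark (51.2%, against 32.1%). Some were also higher in the dark after than before fertilization. The wild-type level after fertilization was at least 2 times that before in 11 of the 43 (25.6%), against 2.22% of all steady genes, and in ∆ve-1 in the dark in 3 (6.98%), against 1.43%. A further feature was a lower level in light than in the dark before fertilization. The light level was at or under 0.5 of the dark level in 10 of the 43 in the wild type (23.3%, against 3.98%) and in 16 in ∆ve-1 (37.2%, against 4.60%). After fertilization, none of the 43 was at or under 0.5 in the wild type and 41 were in ∆ve-1, the latter against 6.65% of all steady genes. The count of 41 follows largely from the rule, which set the strain ratio at or under 1/3 in light and over 0.5 in the dark. Of the libraries behind all these shares, only those in the dark before fertilization were not used by the rule. A larger share than among all steady genes may thus be partly built in by the choice of the genes. The shares are descriptive and no test was made.

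The strains were compared in the dark before fertilization, in libraries the rule did not use. This asks whether the genes depend on ve-1 outside light and before a cross. The test was edgeR's quasi-likelihood test over 9701 genes, with the mean of the strain differences on days -2, -1 and 0, and a gene was called at a Benjamini-Hochberg adjusted p under 0.05 with a log2 fold change beyond 1 in either direction. All 43 genes passed the filter on low counts. Of these, 7 were lower in ∆ve-1 (9.38% of all tested genes were) and 4 were higher (11.3%), and 32 were not called. The median log2 fold change was -0.30, against 0.04 over all tested genes. Without the fold limit, 22 were lower (28.8% of all) and 4 higher (34.9%). The authors pooled tissue of several cultures, and whether the 3 libraries of a group came from separate pools was not given in the sources used here. The p-values measure only the spread between these libraries, and how much of it is technical was not tested.

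NCU07017 (hypothetical protein, chromosome IV, 4920140 to 4921834) fell the most, with 82.9, 79.5 and 97.9 CPM in ∆ve-1 on day -2 against 944, 698 and 456 CPM in the wild type. Its log2 fold change over the 3 days was -2.04 ± 0.17 (SE, edgeR adjusted p = 9.3e-16). NCU09674 was lower in all libraries, 24.2 to 39.0 CPM in ∆ve-1 against 58.6 to 99.1 CPM in the wild type (-1.35 ± 0.12, edgeR adjusted p = 2.6e-15). The bZIP gene zip-1 had 1222 to 2029 CPM in ∆ve-1 against 3148 to 4845 CPM in the wild type (-1.20 ± 0.11, edgeR adjusted p = 6.9e-14). NCU01769 had a log2 fold change of -1.35 ± 0.14 (edgeR adjusted p = 1.5e-12), and of -0.97 without day -2, which ended its call. These 4 genes, with NCU03370, NCU16875 and NCU02656, were thus lower in ∆ve-1 before fertilization in the dark as well. The calls of NCU16875 and NCU02656 rested on the fold limit and were lost without any of 2 and 7 single libraries, at log2 fold changes of -0.99 to -0.96 and -0.9995 to -0.94. That of NCU03370 was lost without day 0, at -0.92.

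The other 4 called genes were higher in ∆ve-1, a share of 9.30% of the set against 11.3% of all tested genes. NCU09186 (hypothetical protein, chromosome III, 285490 to 287797) had 8.46 to 65.0 CPM in ∆ve-1 against 5.43 to 12.98 CPM in the wild type in the dark before fertilization (1.65 ± 0.26, edgeR adjusted p = 1.4e-07). After fertilization in light its ∆ve-1 libraries held 0.390 to 5.55 CPM. NCU06574 was higher by 1.32 ± 0.22 (edgeR adjusted p = 6.6e-07). NCU07618 (hypothetical protein, chromosome IV, 277965 to 283996), the neighbor of the conidiation regulator gene acon-3, was higher by 1.06 ± 0.22 (edgeR adjusted p = 2.2e-05). Its call was lost without any of 3 single libraries, at 0.86 to 0.99, and without day -2, at 0.71. NCU04169 was higher by 1.42 ± 0.52 (edgeR adjusted p = 0.015), but this rested on single libraries. Without the first ∆ve-1 library of day -1, which had 2391 CPM against 9.68 and 169 CPM in the other two, the change was 0.33 and not called, and leaving out either of 2 other ∆ve-1 libraries also ended the call. In the same contrast, 6 of 8 conidiation genes were called higher in ∆ve-1 and none lower. Of 12 light-responsive genes, 6 were called higher and none lower, and con-6 and con-10 were counted in both lists. Of 7 markers of sexual tissue, 3 were called lower and none higher. The part of these lists in the values of the 43 genes was not tested.

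**Figure D4:**
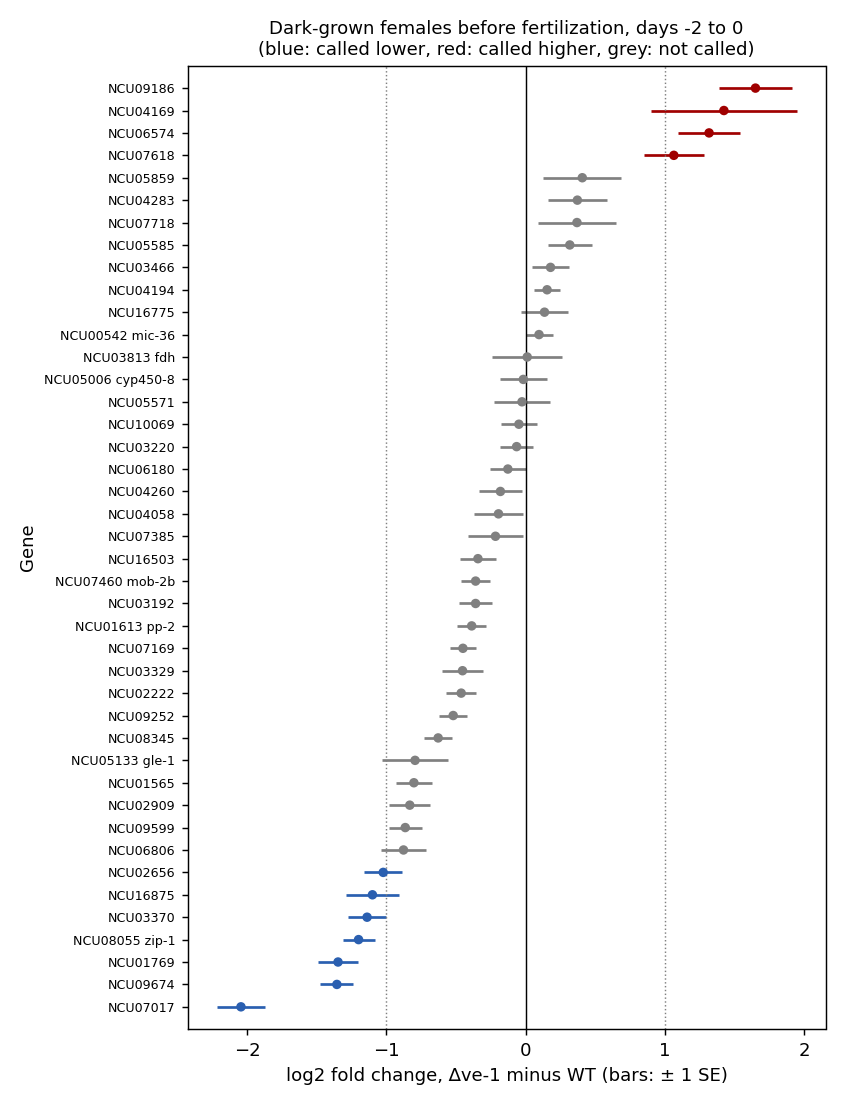
Log2 fold change of ∆ve-1 against the wild type in the dark before fertilization (mean of days -2 to 0, edgeR) for 42 of the 43 genes, with bars of 1 SE. Blue points were called lower (7 genes) and red points higher (4 genes), and the values run from -2.04 in NCU07017 to 1.65 in NCU09186.

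The change from day 1 to day 6 was tested next. The rule used the means over the fertilized days and not the change between them. The libraries are the same, however, so the choice of the genes can bear on these calls and their p-values. The same fit and limits were used. In wild-type light, 5 of the 43 rose (17.0% of all tested genes) and 9 fell (10.2%). In ∆ve-1 in light, 1 rose (3.03%) and 3 fell (3.36%). In the dark, 9 rose (17.9%) and 6 fell (8.4%) in the wild type, and 12 rose (7.85%) and 1 fell (3.66%) in ∆ve-1. The last count was 2 without either the first day 1 or the third day 6 library of that group. The genes that rose late in ∆ve-1 in the dark included NCU05859 (2.06 ± 0.50, edgeR adjusted p = 0.0012), fdh (1.91 ± 0.45, edgeR adjusted p = 0.00089) and cyp450-8 (1.72 ± 0.30, edgeR adjusted p = 7.1e-06). Without the libraries numbered 2, NCU05859 was not called, at 2.02 (edgeR adjusted p = 0.085). By day 6 in the dark, ∆ve-1 was not below the wild type in fdh and mob-2b. On that day fdh was at 304, 273 and 376 CPM in ∆ve-1 and 229, 197 and 226 CPM in the wild type. For mob-2b, the day 6 values were 50.5, 54.2 and 42.0 CPM in ∆ve-1 and 59.3, 46.7 and 37.6 CPM in the wild type, which overlap. The wild-type mean of mob-2b in the dark had fallen from 135 CPM on day 4 to 47.9 CPM on day 6.

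In the wild type, the largest late rises were those of NCU09674 (1.41 ± 0.21, edgeR adjusted p = 3.4e-08) and gle-1 (1.31 ± 0.40, edgeR adjusted p = 0.0045, not called without the libraries numbered 1, at 1.03) in light, and of NCU05859 (3.05 ± 0.52, edgeR adjusted p = 1.3e-06) and NCU04194 (2.00 ± 0.16, edgeR adjusted p = 3.4e-16) in the dark. NCU05859 also rose in wild-type light, by 1.24 ± 0.49 (edgeR adjusted p = 0.026), a call that was lost without any of 3 single libraries, at 1.17 to 1.24. The largest falls in light were those of NCU04169 (-5.50 ± 1.08, edgeR adjusted p = 1.6e-05), NCU07017 (-2.05 ± 0.30, edgeR adjusted p = 4.5e-08) and NCU03220 (-1.98 ± 0.21, edgeR adjusted p = 3.9e-12), and these 3 genes also had the largest falls in wild-type libraries of the dark. In ∆ve-1 in light, the 3 that fell were NCU06180, cyp450-8 and NCU08345, by 1.11, 1.08 and 1.07 on the log2 scale. Each of these calls was lost without 1 library of that strain, at -0.90, -0.97 and -0.90. The libraries were the first of day 6, the second of day 1 and the second of day 6. The 1 that rose was NCU07718, by 1.38 ± 0.49 (edgeR adjusted p = 0.032), and it was not called without any of 4 single libraries, at 0.90 to 1.44.

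The change from day 1 to day 6 in light was then compared between the strains by the interaction term, in libraries that the rule also used. A gap on only some of the fertilized days can meet the rule, so these calls cannot be read apart from the choice of the genes. The change differed in 18 of the 43. In 9 it was lower in ∆ve-1 (13.6% of all tested genes) and in 9 it was higher (7.54%). Of the first kind, NCU06180 (hypothetical protein, chromosome III, 1790619 to 1792643) went from 15.8, 11.7 and 12.6 CPM on day 1 to 27.2, 28.5 and 29.9 CPM on day 6 in the wild type. In ∆ve-1 it went from 4.65, 6.23 and 5.34 CPM to 1.63, 2.31 and 2.98 CPM, a difference of -2.32 ± 0.34 (SE, log2, edgeR adjusted p = 9.2e-08). NCU05859 and NCU16875 followed, at -2.26 ± 0.69 (edgeR adjusted p = 0.0074) and -1.66 ± 0.47 (edgeR adjusted p = 0.0035). Both were not called without the libraries numbered 2, at -2.11 (edgeR adjusted p = 0.15) and -1.48 (edgeR adjusted p = 0.11). Of the second kind, NCU03220 (hypothetical protein, chromosome I, 4946283 to 4952932) had a log2 fold change between the strains of -2.15 on day 1, -1.999 on day 2, -1.09 on day 4 and -0.15 on day 6. Its day 6 values overlapped between the strains, and its difference in change was 2.00 ± 0.29 (edgeR adjusted p = 1.0e-07). NCU07017 was at 371, 334 and 323 CPM on day 1 and 79.2, 76.5 and 73.1 CPM on day 6 in wild-type light, and stayed at 21.0 to 44.9 CPM in ∆ve-1 (1.74 ± 0.42, edgeR adjusted p = 0.00066). NCU04169 had the largest difference, 3.56 ± 1.30 (edgeR adjusted p = 0.025), which was not called without either of 2 single libraries, at 3.09 to 3.39, nor without the libraries numbered 2, at 3.61, or 3, at 3.19. As a description of the genes chosen, the change in ∆ve-1 relative to the wild type thus went both ways.

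**Figure D5:**
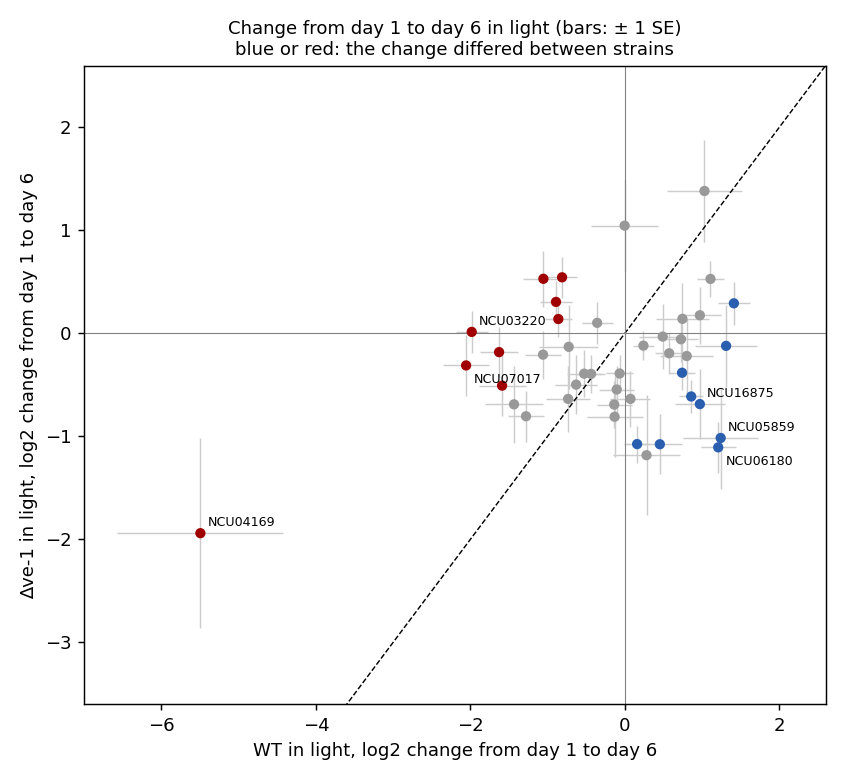
Log2 change from day 1 to day 6 in light in the wild type (horizontal) and in ∆ve-1 (vertical) for the 43 genes, with bars of 1 SE and a dashed line of equal change. Blue points (9 genes) lie below that line, with a lower change in ∆ve-1, and red points (9 genes) above it, and NCU04169 lies far to the left at -5.50.

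To see how far the selection holds in libraries that did not take part in it, the rule was applied with each replicate number left out in turn and read in the libraries left out. It selected 40, 38 and 62 genes, of which 32, 32 and 35 were among the genes chosen from all libraries. The median ∆ve-1/wild-type ratio of the selected genes in light after fertilization in the libraries left out was 0.278, 0.256 and 0.325. Of the selected genes, 36, 33 and 36 were at or under 1/3 there, and 40, 38 and 62 at or under 0.5. Over all steady genes, 5.30%, 5.57% and 4.38% were at or under 1/3 in the same libraries. The lower level in fertilized ∆ve-1 in light was thus seen again in the libraries left out. RNA came from pooled tissue, and whether the libraries of a group were separate pools was not given in the sources used here. The libraries left out may therefore not be independent of the others, and recurrence in separate cultures was not tested. The ratio before fertilization was over 0.5 again in 33, 34 and 33 genes and the ratio in the dark in 35, 37 and 56, and the full set of conditions was met again by 23, 27 and 16 genes.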

How the data were processed

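The deposited values were raw counts of fragments per gene. The authors made strand-specific poly-A libraries, trimmed reads with fastp, mapped them to assembly NC12 with STAR (2.7, per the submitters' processing notes) and counted them per gene with featureCounts. RNA was extracted from tissue pooled across biological replicates. All 10590 identifiers matched RefSeq. Product names came from the study's supplementary tables, which cover 4591 genes.

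The members and gene lists were chosen with earlier results of these data known. Plain CPM was used for the rule. Tests used edgeR 4.0.16 (R 4.3.3, limma 3.58.1), with TMM scaling, the standard filter on low counts (9701 genes kept), a fit of all 28 groups and Benjamini-Hochberg adjustment. Of these tests, only the comparison in the dark before fertilization was tried on simulated data. An SE is the absolute log2 change divided by the square root of F. Contrasts the rule used got no test, but the tests of day 1 against day 6 used libraries that the rule also used. Counts and medians are over all 43 genes, but the values of 1 of them are not reported here. Genes named were ve-1, members with a symbol or product or on a list, the 10 with the lowest ratio or highest level, those beside the limit, and the 3 called with the largest change in each direction and contrast, with others as examples chosen after their values were seen. Alternatives were DESeq2 1.42.0, RLE scaling, no filter, a fit of only the groups compared, no fold limit, a replicate block, other forms of the rule and leaving out replicates. Leaving out single libraries and days of the dark contrast was chosen after seeing the data.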

Additional observations from a re-analysis of the deposited data

Results flagged for a closer look

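In light, the change from day 1 to day 6 differed between ∆ve-1 and the wild type by the interaction test in 18 of the 43 genes. It was lower in ∆ve-1 in 9 (13.6% of all tested genes) and higher in 9 (7.54%). The libraries of this test were also used by the rule. The 3 largest differences in each direction are given. ∆ve-1 minus the wild type was -2.32 on the log2 scale in NCU06180, -2.26 in NCU05859 and -1.66 in NCU16875, and 1.74 in NCU07017, 2.00 in NCU03220 and 3.56 in NCU04169. Of the 10 alternative forms of the rule that kept its limit, NCU05859 met 10, NCU16875 9, NCU07017 and NCU03220 5, and NCU06180 and NCU04169 3.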

How the results depend on the processing

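The rule gave 43 genes, and 42 with TMM-scaled CPM (34 shared), 43 without the added 0.5, 42 with medians, 44 to 50 without 1 of the fertilized days and 38 to 62 without a replicate number. A limit of 0.25 in place of 1/3 gave 13 genes and a limit of 0.4 gave 92. Of the 43, 12 met the rule under all 10 alternatives that kept the limit. Without the fold limit, 22 genes were lower (28.8%) and 4 higher (34.9%) in ∆ve-1 in the dark before fertilization. From day 1 to day 6, 12 rose (28.4% of all tested genes) and 16 fell (27.5%) in wild-type light. In ∆ve-1 light, 3 rose (10.9%) and 6 fell (12.8%). In the dark, 14 rose (27.6%) and 10 fell (27.3%) in the wild type, and 18 rose (12.9%) and 3 fell (11%) in ∆ve-1. The strains' changes in light differed, 10 with ∆ve-1 higher (17.2%) and 11 with it lower (19.2%). With DESeq2, 8 rose in wild-type light (15.6%) and 2 in ∆ve-1 light (3.64%). With only the groups compared in the fit, 2 rose (4.03%) and 6 fell (3.97%) in ∆ve-1 light. Leaving out a replicate number or a single library gave 2 to 4 higher and 5 to 8 lower in the dark before fertilization, 3 to 8 rising and 8 to 9 falling in wild-type light, 0 to 1 rising and 1 to 4 falling in ∆ve-1 light, 8 to 10 rising and 3 to 7 falling in the wild type in the dark, 8 to 14 rising and 0 to 2 falling in ∆ve-1 in the dark, and 6 to 10 higher and 4 to 9 lower in the comparison of the strains' changes. The causes were not tested. No called gene reversed its direction under an alternative. Of 75 called results of single genes, however, 36 lost the call under some alternative, and 22 lost it when some single library was left out.

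Replicate numbers carried no stated pairing. Between the strains on the same day and light, and between days, 54 same-numbered pairs had correlations of their deviations of -0.374 to 0.347 (median 0.059), with 25 over 0.1. In the dark before fertilization, 8 of 9 were over 0.1, and the other was 0.0262. Of the 12 pairs of day 1 with day 6, 1 was over 0.1. Between the strains in the dark, all 3 pairs of a day were over 0.1 on 2 of the 3 days before fertilization and on 1 of the 4 days after it. As no comparison taken over its days had all of its pairs over 0.1, a pairing by number was not established. With a replicate block, 4 genes were higher (11.3% of all tested genes) and 7 lower (9.38%) in the dark before fertilization, 6 rose (17.3%) and 9 fell (10.2%) in wild-type light, 1 rose (3.06%) and 3 fell (3.4%) in ∆ve-1 light, 9 rose (18.05%) and 6 fell (8.37%) in the wild type in the dark, 12 rose (8.05%) and 1 fell (3.73%) in ∆ve-1 in the dark, and the strains' changes in light differed, 8 with ∆ve-1 higher (7.64%) and 9 with it lower (13.8%).

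At these depths the lowest count of a gene of the set in any library was 6 in the lowest gene and had a median of 251 over the set, so counting error was small for all but a few genes. Pooled tissue limits what the spread between libraries can show about separate cultures.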
